A study of Mus musculus with 4 samples.

Results

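The primary cilium is a single non-motile antenna on the surface of most mammalian cells, built from a modified centriole, and in bone cells it is one of the structures through which fluid flow and stretch are sensed. Intraflagellar transport (IFT) particles carry its building blocks outward on kinesin-2 and back on dynein-2, the BBSome coat moves membrane proteins in and out, and a transition zone at the base gates entry. Hedgehog signalling runs through this organelle: the receptor Ptch1 keeps the transducer Smo out of the cilium until a ligand binds, Smo then acts on the Gli transcription factors that Sufu holds in check, and *Gli1* and *Ptch1* are themselves transcribed in response, so that their mRNA serves as a readout of the pathway.

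The genes described here are 39 genes of the primary cilium and of Hedgehog signalling, chosen by name from the 55450 genes of the count table. They comprise 11 genes of the IFT-B particle, 3 of the IFT-A particle, 7 BBSome subunits, the BBSome chaperonin *Bbs12*, 2 ciliary GTPases, 3 kinesin-2 subunits, 2 dynein-2 subunits, 3 genes of the basal body and transition zone, 6 Hedgehog genes and the ciliary adenylyl cyclase *Adcy6*. Of these, 38 passed the filter on low counts and were tested among 16269 genes, and *Gli2* did not pass.

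RNA-seq was made from MLO-Y4 cells, a mouse osteocyte-like line labelled wild type, in 2 unloaded and 2 loaded libraries. Loaded cells had grown on collagen-coated flexible silicone membranes and were stretched equiaxially for 12 h, with 20% strain at a frequency of 0.5 Hz, whereas unloaded cells had grown on ordinary culture plates kept in the incubator of the same device for the same time. The growth surface therefore differed together with the stretch, and the contributions of surface and stretch cannot be told apart. All libraries came from 1 line, and the labels do not say whether the replicates were separate cultures, so p-values measure only the spread between these samples, which may be technical.

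The libraries held 28941994 to 32185693 counts. A level of 3 counts, taken as the detection floor, corresponded to 0.0930 to 0.103 counts per 1e6 library counts (CPM). The osteocyte marker *Pdpn* was well expressed, at 143 and 151 CPM in unloaded and 215 and 228 CPM in loaded cells. So were *Phex*, *Gja1* and *Cd44*, with means over the 4 libraries of 47.7, 516 and 685 CPM. By contrast *Dmp1* had 12 to 14 counts, *Fgf23* at most 9, *Sost* at most 4 and *Mepe* 0. The macrophage gene *Csf1r* stood at 45688 to 50270 counts per library, although *Ptprc*, which marks blood cells, had at most 3 counts. Summed levels of the 8 motile cilium markers matched by name, of 10 listed, were 6.42 to 7.61 CPM, with the master regulator *Foxj1* at no more than 8 counts and *Dnah5* at 0. Among 8 proliferation markers 7 had a lower level in loaded cells, and their summed level was 3920 and 3697 CPM in unloaded against 3154 and 3334 CPM in loaded cells. Most of that gap lay in *Mki67* and *Top2a*, with log2 fold changes of -0.32 and -0.30 and adjusted p-values of 0.0966 and 0.143 in edgeR, while DESeq2 gave 0.00232 and 0.0104. The other 6 markers summed to 1358 and 1342 CPM in unloaded and 1240 and 1289 CPM in loaded cells, and *Ccnb1*, *Cdk1*, *Bub1* and *Mcm2* had overlapping groups. Cells resorb the cilium when they divide, and the part of this difference in the cilium gene values given here was not tested.

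No cilium or Hedgehog gene differed between loaded and unloaded cells at an adjusted p below 0.01 (edgeR quasi-likelihood test with Benjamini-Hochberg adjustment over all 16269 genes), against 0.0983% of all tested genes. DESeq2 and limma-voom also called 0 of the 38, where DESeq2 called 2.91% of the genes to which it gave an adjusted p. The smallest adjusted p among the members was 0.143 in edgeR, for *Ift122*, and 0.0606 in DESeq2, for *Sufu*. Small differences in 1 direction were nevertheless common. A fold change above 0 on the log2 scale was found for 5 of the 38, whereas 48.5% of all tested genes had one, and 33 were lower in loaded cells. The median log2 fold change (loaded minus unloaded) was -0.15 for the members and -0.01 for all tested genes.

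At an unadjusted p below 0.05, 10 members (26.3%) were lower in loaded cells and 0 were higher. The same threshold took 7.46% of all tested genes as lower and 6.88% as higher. The count of 10 dropped to 4 without unloaded replicate 1 or without loaded replicate 1 and to 6 without unloaded replicate 2, with a smaller fit in each case. Both loaded libraries lay below both unloaded libraries for 19 members (50%), compared with 24.5% of all tested genes. Both loaded libraries lay above both unloaded ones for 2 members, compared with 22.1% of all tested genes, and the groups overlapped for the other 17. Among 7593 protein-coding genes within the members' range of level and exon length, a set defined after the values had been seen, 54.1% were lower in loaded cells, 9.86% were lower at an unadjusted p below 0.05 and 28.6% had both loaded libraries below both unloaded ones. These counts describe the members and carry no p-value, since genes of 1 set of libraries are not independent.

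**Figure D1:**
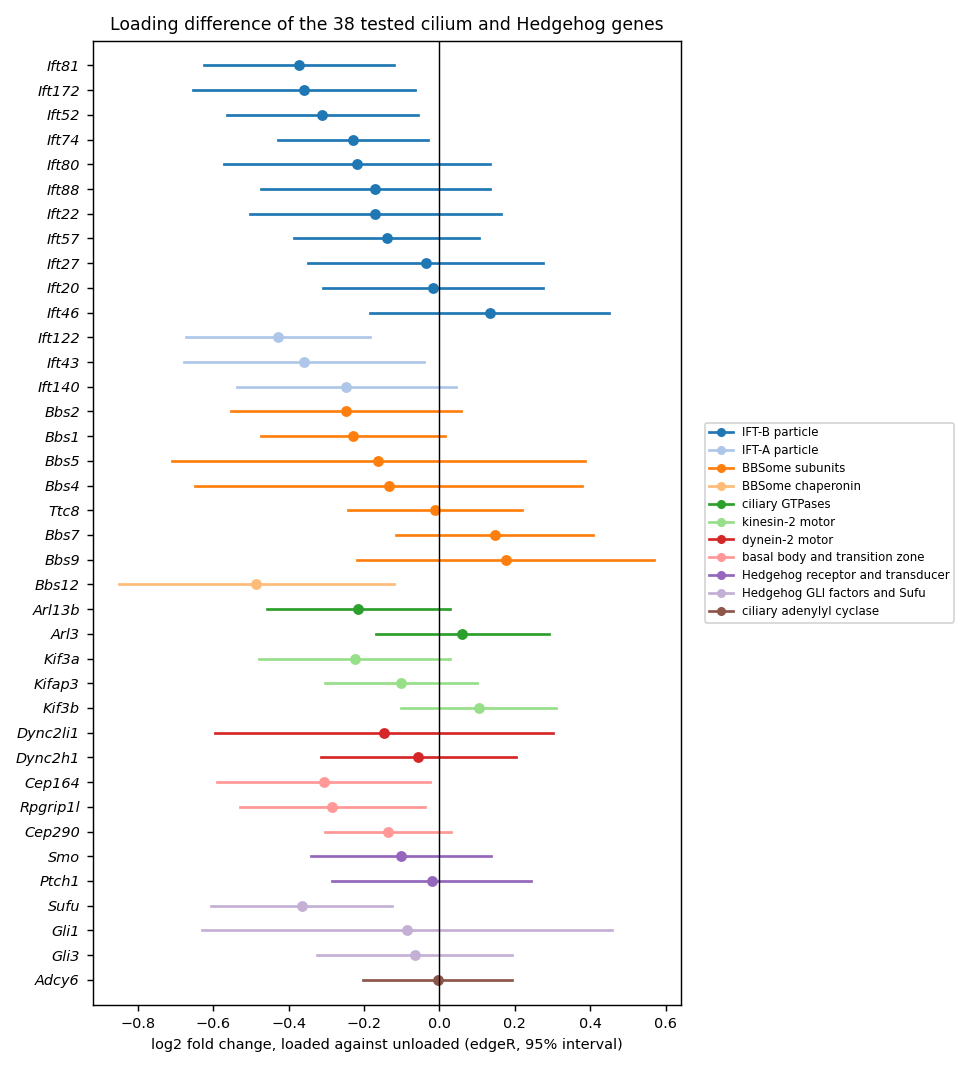
Log2 fold change (loaded minus unloaded) of the 38 tested members with its 95% interval from the edgeR fit, ordered by role. A total of 33 points lie below 0, the largest differences are those of *Bbs12* at -0.49 and *Ift122* at -0.43, and all 38 intervals stay within a 2-fold difference.

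The estimated differences were small, and their intervals were wide beside them. The absolute log2 fold change of the members ran from 0.01 to 0.49 with a median of 0.17, and none went beyond 1.5-fold. The half-width of the 95% interval was between 0.17 and 0.55, so that the intervals of 27 members lay within a 1.5-fold difference and those of all 38 within a 2-fold difference, each interval taken for its own gene. Between the pair of replicate libraries the log2 level of a member differed by 0.01 to 0.33 in unloaded cells, with a median of 0.12, and by 0.01 to 0.59 in loaded cells, with a median of 0.15. The median absolute difference between groups was thus of the same order as the difference between replicates. The first rests on 2 libraries per group and the second on single libraries, so their scales are not equal. Sign is left out of both, although 33 of the 38 group differences were below 0.

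**Figure D2:**
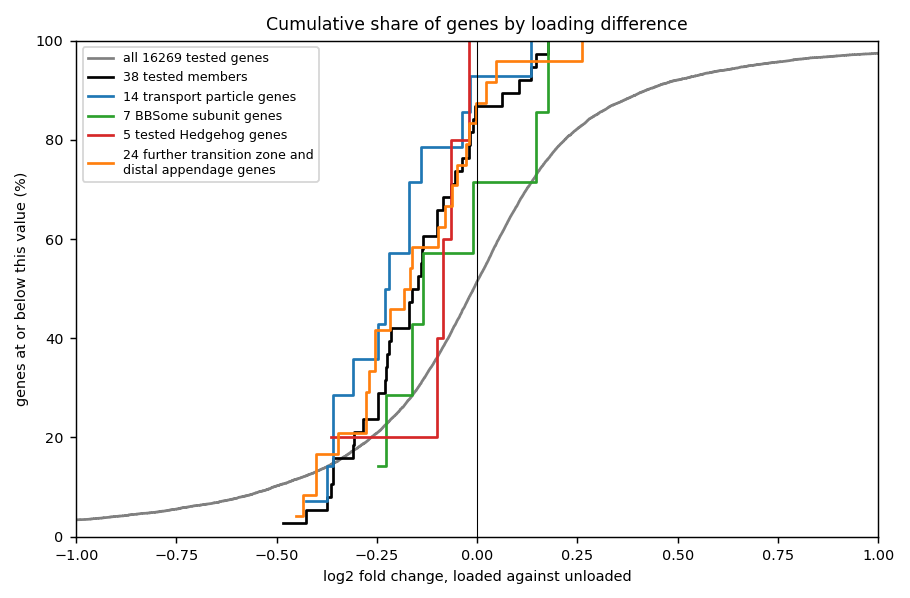
Cumulative share of genes against log2 fold change (loaded minus unloaded) for all 16269 tested genes, the 38 members, the 14 transport particle genes, the 7 BBSome subunits, the 5 tested Hedgehog genes and 24 further transition zone and distal appendage genes; the axis is cut at -1 and 1. The curve of the members lies left of that of all genes, with medians of -0.15 and -0.01, and the transport particle curve lies furthest left around its median of -0.22.

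Levels were compared between genes as CPM per kilobase of annotated exon, averaged over the 4 libraries. On this scale the members ran from 1.27 to 43.3 with a median of 6.80, and 25 of the 38 lay above the median of all tested genes, which was 4.90. The small GTPase *Arl3*, which releases lipid-anchored cargo inside the cilium, was highest at 43.3, followed by the IFT-B core gene *Ift74* at 31.7, the kinesin-2 accessory subunit *Kifap3* at 22.4 and the small IFT-B subunit *Ift20* at 21.4. *Adcy6*, a calcium-inhibited adenylyl cyclase that localises to the cilium, had 19.0 and the motor subunit *Kif3b* 18.3. The lowest levels per kilobase were those of *Gli1* at 1.27, the BBSome genes *Bbs4* at 1.82 and *Bbs9* at 2.08, and the very long dynein heavy chain *Dync2h1* at 2.28. Merged exon lengths count every annotated isoform, so genes with many isoforms are placed too low on this scale.

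**Figure D3:**
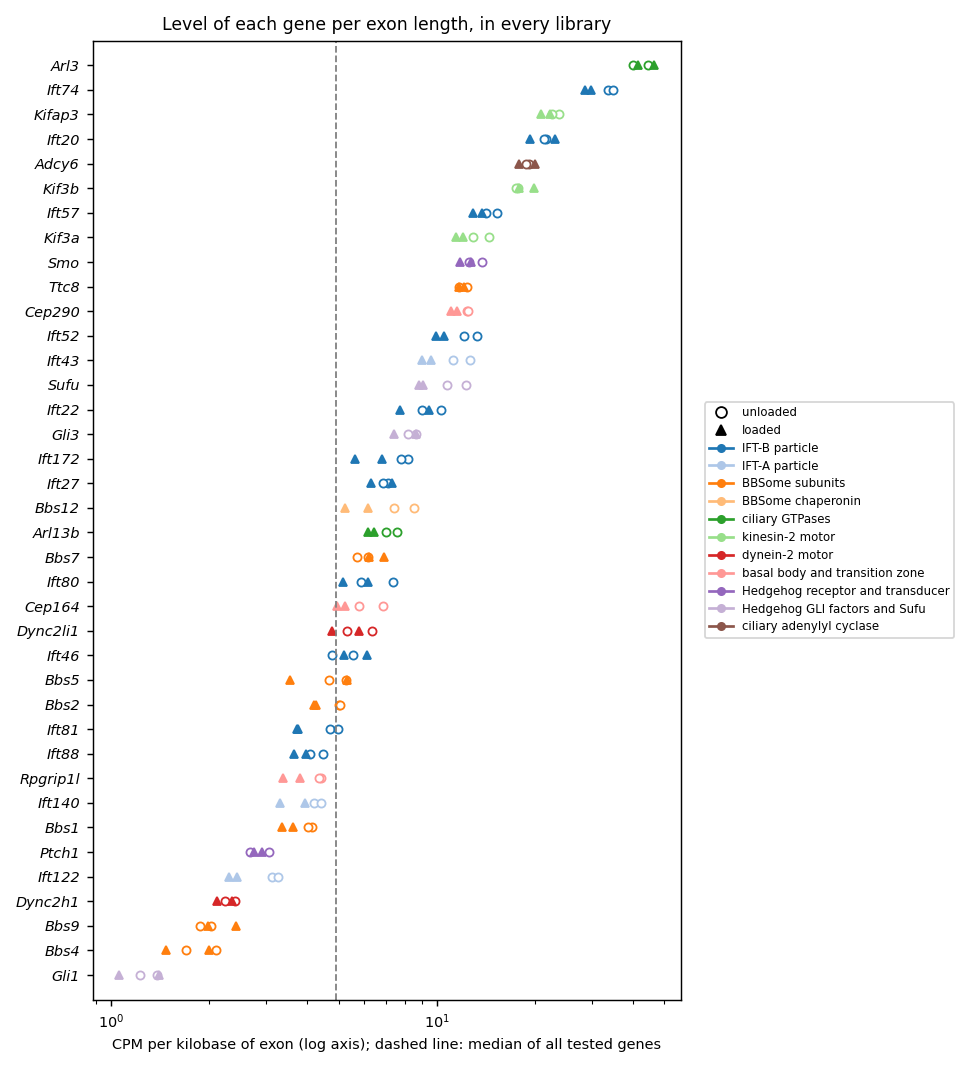
Level of the 38 tested members in CPM per kilobase of exon on a logarithmic axis, 1 mark for each of the 4 libraries, with open circles for unloaded, triangles for loaded and colours for role; the dashed line is the median of all tested genes. *Arl3* is highest at a mean of 43.3 and *Gli1* lowest at 1.27, and the libraries of a gene lie close together compared with the distance between genes.

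Neighbours in this order could often not be separated. *Kifap3* and *Ift20* had overlapping values over the 4 libraries, as had *Adcy6* and *Kif3b*, whereas *Arl3* and *Ift74* did not overlap. *Gli2*, the main activator among the Gli factors, on chromosome 1 from 118834132 to 119053619 (GRCm38, the build called mm10 in the labels), was listed at 0 counts in all 4 libraries, below the floor of 3 counts per library.

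The IFT-B particle, which drives outward transport, had 10 of its 11 genes lower in loaded cells. Of these, 4 had an unadjusted p below 0.05, where 7.46% of all tested genes were lower at that threshold. The median of its log2 fold changes was -0.17. Its summed level was 477 and 468 CPM in unloaded and 412 and 417 CPM in loaded cells. *Ift81*, which with *Ift74* forms the tubulin-binding module, lies on chromosome 5 from 122550204 to 122614518. Its level was 27.4 and 29.2 CPM in unloaded and 21.8 and 21.9 CPM in loaded cells. The groups did not overlap, the log2 fold change was -0.37 ± 0.103 (SE) and the edgeR adjusted p was 0.189. *Ift172*, a peripheral subunit with a role in turnaround at the ciliary tip, was at 53.9 and 51.6 CPM against 44.9 and 37.3 CPM, a log2 fold change of -0.36 ± 0.120 with an edgeR adjusted p of 0.263. *Ift52*, a scaffold of the IFT-B core, was at 37.3 and 33.9 CPM against 28.0 and 29.5 CPM, a log2 fold change of -0.31 ± 0.104 with an edgeR adjusted p of 0.263. *Ift74* was at 89.2 and 92.6 CPM against 76.1 and 79.1 CPM, a log2 fold change of -0.23 ± 0.0818 with an edgeR adjusted p of 0.291. In all 4 genes both loaded libraries lay below both unloaded ones, as in 24.5% of all tested genes. The 4 were named for an unadjusted p below 0.05, which favours such a separation, so it is no further support. None of the 4 passed the adjusted threshold.

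The other IFT-B genes had smaller differences. *Ift88*, whose loss removes cilia in the mouse, was at 20.8 and 18.9 CPM in unloaded and 16.9 and 18.4 CPM in loaded cells, which gave a log2 fold change of -0.17 and a 95% interval from -0.47 to 0.13. *Ift57* had -0.14, and its groups too did not overlap. For *Ift80* at -0.22, *Ift22* at -0.17, *Ift27* at -0.04 and *Ift20* at -0.02 the groups overlapped. *Ift46* was the only IFT-B gene listed here with a higher mean in loaded cells, at 0.13 on the log2 scale, again with overlapping groups.

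The IFT-A particle, needed for return transport and for entry of membrane receptors, had the lowest median of the role groups with more than 1 member, at -0.36, although without unloaded replicate 2 it was -0.27 and that of the basal body and transition zone genes -0.29. In all 3 IFT-A genes both loaded libraries lay below both unloaded ones, as in 24.5% of all tested genes. *Ift122*, on chromosome 6 from 115853470 to 115926699, is a core IFT-A subunit. It was at 32.2 and 33.6 CPM in unloaded cells (mean 32.9 ± 1.01, SD, n = 2) and at 25.2 and 23.7 CPM in loaded cells (mean 24.4 ± 1.02, SD, n = 2). The difference between groups was several times the SD within them, which naming the gene by its smallest p favours, so it is no further support. The log2 fold change was -0.43 ± 0.100 (SE) with a 95% interval from -0.67 to -0.18, and the edgeR adjusted p of 0.143 missed the threshold. *Ift43* was at 18.5 and 21 CPM against 15.9 and 14.9 CPM, a log2 fold change of -0.36 ± 0.131 with an edgeR adjusted p of 0.299. *Ift140* was at 34.9 and 36.8 CPM against 27.6 and 32.8 CPM, a log2 fold change of -0.25 with an interval from -0.54 to 0.04.

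Put together, 13 of the 14 transport particle genes had a log2 fold change below 0 (median -0.22). In 9 of them both loaded libraries lay below both unloaded ones, compared with 24.5% of all tested genes. The summed level of the 14 genes, 563 and 559 CPM in unloaded cells, stood against 481 and 489 CPM in loaded cells.

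The BBSome subunits had values in both directions, although the difference from the transport particle genes was not tested. Of the 7 subunits 5 were lower and 2 higher, the median was -0.13, and 0 had an unadjusted p below 0.05. At that threshold 7.46% of all tested genes were lower and 6.88% higher, and a count of 0 among 7 genes is near those shares. Their summed level was 164 and 158 CPM in unloaded and 153 and 160 CPM in loaded cells, so that these sums overlapped. *Bbs1*, which binds the GTPase that recruits the coat to membranes, had the smallest p of the subunits. It was at 31.7 and 30.9 CPM against 25.8 and 27.7 CPM, a log2 fold change of -0.23 ± 0.100 with an edgeR adjusted p of 0.375. *Bbs2* was also lower in both loaded libraries, at 16.6 and 16.8 CPM against 14.2 and 13.9 CPM. *Bbs7* lay in the other direction, at 33.2 and 30.7 CPM against 33.5 and 37.1 CPM, with a log2 fold change of 0.15 and an interval from -0.11 to 0.41. *Bbs9* at 0.18, *Bbs4* at -0.13, *Bbs5* at -0.16 and *Ttc8* at -0.01 had overlapping groups. Leaving out 1 library at a time moved the BBSome median between -0.07 and 0.02, with -0.07 without unloaded replicate 1, -0.05 without unloaded replicate 2, -0.04 without loaded replicate 1 and 0.02 without loaded replicate 2.

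*Bbs12* is not a subunit but part of the chaperonin complex that assembles the BBSome, and lies on chromosome 3 from 37312554 to 37321453. Its level was 20.7 and 18.1 CPM in unloaded and 12.7 and 15.0 CPM in loaded cells. This was the largest fold difference among the members, -0.49 ± 0.149 on the log2 scale with an interval from -0.85 to -0.12, and the edgeR adjusted p was 0.227. Its exons share 32 bases with a neighbouring gene on each strand. A further 5 genes of the BBSome and its chaperonins had values in both directions. *Mkks*, a chaperonin partner of *Bbs12*, was at 13.0 and 14.2 CPM against 21.9 and 19.0 CPM, a log2 fold change of 0.59 with an edgeR adjusted p of 0.143. *Bbs10*, the remaining chaperonin partner, was at 8.85 and 8.22 CPM against 5.42 and 5.91 CPM, a log2 fold change of -0.59 with an edgeR adjusted p of 0.228. The chaperonin genes thus had values in opposite directions, none past the adjusted threshold.

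**Figure D4:**
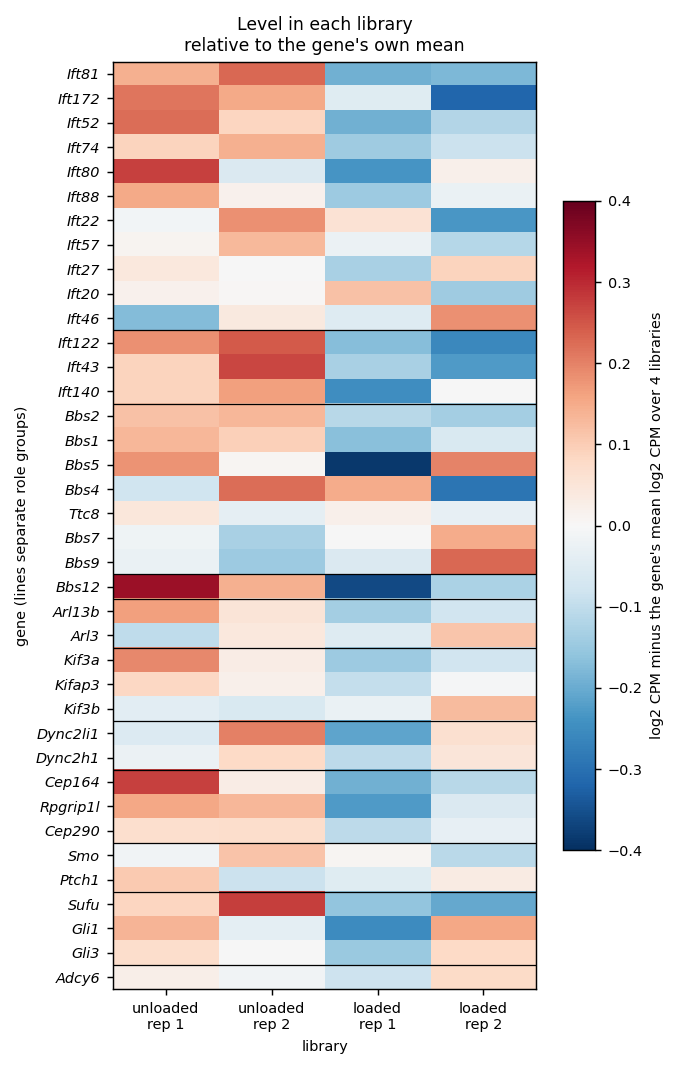
Level of each tested member in each of the 4 libraries, drawn as a colour for log2 CPM minus that gene's mean over the libraries, red above and blue below, with members in rows by role. The IFT-A and basal body rows are lower in both loaded libraries, while rows of the BBSome and of *Gli1* and *Ptch1* mix directions.

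Of the 7 motor and GTPase genes 5 were lower and 2 higher in loaded cells, and 0 had an unadjusted p below 0.05. At that threshold 7.46% of all tested genes were lower and 6.88% higher, so 0 of 7 is near those shares. Both loaded libraries lay below both unloaded ones for *Kif3a*, *Kifap3* and *Arl13b*, as in 24.5% of all tested genes. For *Kif3b* both lay above, as in 22.1% of all tested genes. The medians were -0.10 for kinesin-2, -0.10 for dynein-2 and -0.08 for the GTPases. The dynein-2 median ran from -0.21 without loaded replicate 2 through -0.18 without unloaded replicate 1 and -0.0079 without unloaded replicate 2 to 0.0016 without loaded replicate 1. That of kinesin-2 was -0.06 without unloaded replicate 1 or without loaded replicate 1, and that of the GTPases was -0.02 without loaded replicate 1 and -0.13 without loaded replicate 2. *Kif3a*, a kinesin-2 motor subunit, was at 52.1 and 46.5 CPM against 41.2 and 43.2 CPM, a log2 fold change of -0.22 with an interval from -0.48 to 0.03. Its partner *Kif3b* was at 100 and 98.6 CPM against 101 and 112 CPM, a log2 fold change of 0.10 with an interval from -0.10 to 0.31. *Kifap3* had -0.10, so the 3 subunits of the heterotrimer had values on both sides of 0. *Arl13b*, which activates *Arl3* and is a standard label of the ciliary membrane, was at 38.5 and 35.6 CPM against 31.2 and 32.6 CPM, a log2 fold change of -0.21 with an interval from -0.46 to 0.03. *Arl3* itself had 0.06. *Dync2li1*, the light intermediate chain of dynein-2, was at 9.92 and 11.8 CPM against 8.90 and 10.8 CPM with overlapping groups, and *Dync2h1* had -0.06.

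All 3 genes of the basal body and transition zone were lower in both loaded libraries than in both unloaded ones, as were 24.5% of all tested genes. The median of the 3 genes was -0.28, which was -0.17 without unloaded replicate 1. *Rpgrip1l*, a transition zone scaffold on chromosome 8 from 91217030 to 91313262, was at 64.7 and 63.8 CPM in unloaded and 49.7 and 55.9 CPM in loaded cells. Its log2 fold change was -0.28 ± 0.101 with an edgeR adjusted p of 0.288. *Cep164*, a distal appendage protein that docks the centriole to the membrane, was at 68.3 and 57.7 CPM against 49.5 and 52.4 CPM, a log2 fold change of -0.31 ± 0.116 with an edgeR adjusted p of 0.313. *Cep290*, which bridges microtubules and membrane in the transition zone, was at 144 and 145 CPM against 128 and 135 CPM, a log2 fold change of -0.14 with an interval from -0.30 to 0.03. *Cep290* shares 881 exon bases with a gene on the opposite strand.

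A longer list of 24 further transition zone and distal appendage genes had 21 lower and 3 higher, with a median of -0.17. Of the 24 genes, 7 were lower and 0 higher at an unadjusted p below 0.05, compared with 7.46% and 6.88% of all tested genes. In edgeR 0 of them passed the adjusted threshold. The smallest p belonged to *Ccp110*, which caps the centriole and has to leave before a cilium grows, at 97.1 and 88.1 CPM against 70.4 and 75.0 CPM, with a log2 fold change of -0.35 and an edgeR adjusted p of 0.178. *Mks1*, a transition zone gene, was at 19.1 and 19.8 CPM against 14.7 and 14.2 CPM with a log2 fold change of -0.43. *Cc2d2a*, its partner at the zone, was at 45.3 and 41.6 CPM against 29.6 and 36.2 CPM with a log2 fold change of -0.40. Of 10 further IFT genes 8 were lower, with a median of -0.12 and 2 lower at an unadjusted p below 0.05. By contrast, 4 of 6 further dynein-2 and kinesin genes were higher, with a median of 0.13 and 0 at an unadjusted p below 0.05 in either direction.

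The Hedgehog genes were all present as transcripts apart from *Gli2*, and the 5 tested genes had a median of -0.09. This median was 0.02 without loaded replicate 1, -0.02 without unloaded replicate 1 and -0.18 without loaded replicate 2, so its sign rested on single libraries. *Gli1*, on chromosome 10 from 127329882 to 127341974, had 201 and 186 counts in unloaded and 171 and 209 counts in loaded cells. In CPM these were 6.92 and 6.14 against 5.30 and 7.01, so that the loaded libraries lay on both sides of the unloaded ones. Its log2 fold change was -0.09 ± 0.223 with an interval from -0.63 to 0.46 and an edgeR adjusted p of 0.907. *Ptch1*, on chromosome 13 from 63508328 to 63573598, had 1259 and 1152 counts in unloaded and 1258 and 1229 counts in loaded cells, which is 43.4 and 38 CPM against 39 and 41.2 CPM. Its log2 fold change was -0.02 ± 0.108 with an interval from -0.28 to 0.24 and an edgeR adjusted p of 0.959. Summed over both output genes the level was 50.3 and 44.2 CPM in unloaded and 44.3 and 48.3 CPM in loaded cells, so that the groups overlapped, and the log2 fold change of each of these genes was above 0 without unloaded replicate 1 or without loaded replicate 1. The upper end of the interval was a 1.18-fold higher level for *Ptch1* and a 1.37-fold higher level for *Gli1*.

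The transducer *Smo* was at 70.7 and 77.3 CPM in unloaded and 71.8 and 66.2 CPM in loaded cells, which gave a log2 fold change of -0.10 with an interval from -0.34 to 0.14. *Gli3*, the Gli factor that is mostly cut to a repressor, was at 82.6 and 78.5 CPM against 70.9 and 83.1 CPM with overlapping groups. *Gli3* was the most abundant Gli transcript per kilobase of exon, at 8.22 against 1.27 for *Gli1*. *Sufu*, which binds Gli proteins and restrains them, lies on chromosome 19 from 46396896 to 46488804 and was the Hedgehog gene with the largest difference. It was at 83.0 and 94.7 CPM in unloaded (mean 88.9 ± 8.29, SD, n = 2) and 70.1 and 67.9 CPM in loaded cells (mean 69.0 ± 1.55, SD, n = 2). The groups did not overlap and the log2 fold change was -0.37 ± 0.0987, with an interval from -0.61 to -0.13 and an adjusted p of 0.182 in edgeR and 0.0606 in DESeq2. *Adcy6* was even between the groups, at 131 and 127 CPM against 122 and 136 CPM with a log2 fold change of -0.01 and an interval from -0.20 to 0.19.

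Elsewhere in the Hedgehog pathway the ligand genes were at or near the floor. *Shh* was at 0 counts in every library, *Ihh* had 4 to 7 counts and *Dhh* 1 to 10 counts. *Scube2*, which helps release the ligand from its cell, had 25 and 13 counts in unloaded and 0 in both loaded libraries. Its edgeR adjusted p was 0.131, but it passed the filter on low counts only through the unloaded libraries. DESeq2 gave *Scube2* no adjusted p, so its difference carries no weight here. *Hhat*, the acyltransferase that lipidates the ligand, was at 2.51 and 2.44 CPM against 0.868 and 1.01 CPM, a log2 fold change of -1.40 with an edgeR adjusted p of 0.152. Among the co-receptors *Gas1* was at 51.1 and 59.2 CPM against 43.8 and 41.1 CPM, a log2 fold change of -0.38 with an edgeR adjusted p of 0.212, and the ligand trap *Hhip* was at 0 counts in every library. Neither the ligand nor the co-receptor list had a gene past the adjusted threshold.

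Of 12 intracellular regulators 4 were higher and 8 lower. *Spop*, an adaptor that targets Gli proteins for degradation, was at 239 and 233 CPM against 281 and 275 CPM, a log2 fold change of 0.23 with an edgeR adjusted p of 0.162. *Gsk3b*, a kinase that phosphorylates Gli proteins, was at 55.0 and 62.3 CPM against 168 and 83.1 CPM, and the first loaded library stood far above the second. Of 7 further response genes tested, 3 were higher and 4 lower. *Ccnd2*, a cell cycle cyclin, was at 205 and 192 CPM against 250 and 264 CPM, a log2 fold change of 0.37 with an adjusted p of 0.0916 in edgeR and 0.00118 in DESeq2. *Foxf2* had a log2 fold change of 0.53 and *Bcl2* of -0.60, with edgeR adjusted p-values of 0.113 and 0.140. These response genes thus had values in both directions, and each also answers to other pathways.

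The X-box is the site at which RFX factors, regulators of many ciliary genes, bind DNA. Its letters were searched as GTNNCC followed by NNGGNNAC, which is its own reverse complement, in the 300 bases around each RefSeq gene start of GRCm38.p6 (250 before and 50 after). Promoters were matched for 33 members, not for *Ift80*, *Ift81*, *Ift122*, *Dync2li1*, *Gli1* and *Adcy6*. The letters were present in 5 of the 33 (15.2%) and in 2.16% of all 27025 genes with a promoter in the table. The matches in *Ift57* (chr16:49699187-49699240, plus strand), *Ift22* (chr5:136908097-136908149, plus strand) and *Bbs7* (chr3:36613477-36613530, minus strand) are shown because they lie before the start, in genes with log2 fold changes on both sides of 0, and the X-box letters are in capitals.
Ift57: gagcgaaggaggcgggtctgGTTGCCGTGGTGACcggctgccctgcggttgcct
Ift22: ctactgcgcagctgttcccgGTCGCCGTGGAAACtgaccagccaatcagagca
Bbs7: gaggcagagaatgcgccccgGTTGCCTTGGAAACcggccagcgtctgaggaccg
The capitals begin 87 bases before the start in *Ift57*, 33 in *Ift22* and 121 in *Bbs7*. *Ift22* held another match that begins 63 bases before its start, and *Bbs1* and *Bbs4* held a match within the first 50 transcribed bases. The log2 fold change was below 0 in 4 of the 5 members with the letters (median -0.14) and in 23 of the 27 tested members without them (median -0.16). The GLI site GACCACCCA, searched on both strands, was found in 0 of the 33 member promoters and in 0.289% of all genes. A match is a description of letters and not of binding.

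Among the RFX genes themselves, 3 of 5 were lower and 2 higher. At an unadjusted p below 0.05, 2 of them were lower, as were 7.46% of all tested genes. *Rfx5*, known mainly for its part in MHC class II transcription, was at 32.9 and 33.9 CPM against 23.2 and 19.8 CPM, a log2 fold change of -0.63 with an adjusted p of 0.0937 in edgeR and 0.0128 in DESeq2. *Rfx1* was at 27.1 and 33.1 CPM against 25.3 and 22.5 CPM, a log2 fold change of -0.33 with an edgeR adjusted p of 0.346. Neither passed the adjusted threshold. Of 8 genes that act in cilium disassembly 6 were lower and 2 higher, with 0 at an unadjusted p below 0.05. All 4 tested calcium channel and cyclase genes of the cilium had a log2 fold change below 0, with 0 at an unadjusted p below 0.05. *Adcy3* had the smallest p of this list, at a low level of 31 to 54 counts. It was at 1.79 and 1.78 CPM against 0.992 and 1.04 CPM, a log2 fold change of -0.81 with an edgeR adjusted p of 0.385. *Pkd1*, the polycystin that pairs with *Pkd2*, was at 77.3 and 75.7 CPM against 69.4 and 65.9 CPM.

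The members lie on 17 chromosomes, and exons of 8 of them overlap exons of genes on the opposite strand. Whether the counting used strand is not given in the sources used here, so reads of such pairs cannot be told apart, and *Gli1*, *Gli3*, *Adcy6*, *Ift57*, *Ift88*, *Bbs4*, *Bbs12* and *Cep290* are the members concerned. In bulk RNA a lower level can mean fewer cells carrying a transcript or less of it per cell, and these cannot be told apart here.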

How the data were processed

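Total RNA of MLO-Y4 cells was depleted of ribosomal RNA before sequencing, and the library kit is not given in the sources used here. The authors mapped trimmed reads to mm10 with HISAT2 2.1.0 and assembled transcripts with StringTie 1.3.5. The deposited gene counts are unnormalised counts per gene, derived from the StringTie output with its companion script. Their genome-wide test used DESeq2 1.32.0, and edgeR served them for a further comparison. From the counts of 4 libraries (28941994 to 32185693 in total), genes were filtered with filterByExpr (minimum count 10), scaled by TMM and compared between loaded and unloaded cells by the edgeR 4.0.16 quasi-likelihood F test (R 4.3.3), with Benjamini-Hochberg adjustment over 16269 genes and a threshold of 0.01. The SE is the log2 fold change divided by the square root of F, and intervals are 95% intervals from the t distribution. DESeq2 1.42.0, limma 3.58.1 with voom, other scalings and filters, a replicate block and leaving out each library were alternatives. On simulated data with 16269 genes for the same comparison, 74.2% of 97 genes changed by 1 on the log2 scale and 85.4% of 103 changed by 2 were called. Both sizes exceed the largest member difference of 0.49. The shares therefore do not tell how often differences as small as those of the members are called. Exon lengths came from GENCODE M21 on GRCm38, in which all 55450 gene IDs were found. The 27 gene names that had turned into numbers were replaced through their gene IDs from a separate gene name reference. Promoters came from RefSeq (GRCm38.p6). Intervals and the floor of 3 counts cover, respectively, the fitted spread and counting error only.

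Samples were grouped by their treatment label. All members could be named. Full statistics were given for *Gli1*, *Ptch1*, members with an adjusted p below 0.01 or an unadjusted p below 0.05 and the member with the smallest p in each role, and at most the 3 smallest p of each further list. The members and lists were chosen with earlier results of these data known, so their counts are no independent support.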

Additional observations from a re-analysis of the deposited data

How the results depend on the processing

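In edgeR, DESeq2 and limma-voom no member passed an adjusted p of 0.01 in any of 11 alternative settings, the smallest adjusted p being 0.0606 (DESeq2), and the number of members with a log2 fold change below 0 stayed between 26 and 33. The number lower at an unadjusted p below 0.05 was 10, but 6 with a replicate block and 4 to 7 when 1 library was left out. Same-numbered libraries did not deviate together over genes (correlation -0.06). This is 1 value from 4 libraries and cannot exclude that replicates were paired, which the labels do not state. Over all genes the counts at an adjusted p below 0.01 were 2 higher and 14 lower, against 170 and 193 with DESeq2, 0 and 0 without a filter on low counts, 4 and 25 with at least 10 counts in every library, 0 and 0 with the replicate block, 55 and 92 at an adjusted p below 0.05, and 0 to 18 and 0 to 25 when 1 library was left out (18 and 25 without unloaded replicate 1, 0 and 0 without either loaded library). The cause was not tested. The BBSome median of -0.13 ranged from -0.067 to 0.016 in the leave-one-out fits, that of *Gli1* and *Ptch1* from -0.18 to 0.06 and that of the transport particle genes from -0.24 to -0.19.

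Of 418 values (38 members, 11 settings) 19 changed sign, in 11 genes. With DESeq2 *Adcy6* was at 0.0024 and with RLE size factors at 0.004. Leaving out 1 library gave log2 fold changes from -0.153 to 0.106 for *Ift20*, -0.150 to 0.0681 for *Ift27*, -0.371 to 0.0679 for *Bbs4*, -0.483 to 0.102 for *Bbs5*, -0.0509 to 0.0377 for *Ttc8*, -0.0222 to 0.140 for *Arl3*, -0.133 to 0.0182 for *Dync2h1*, -0.112 to 0.0852 for *Ptch1*, -0.301 to 0.103 for *Gli1*, -0.184 to 0.0439 for *Gli3* and -0.0862 to 0.0718 for *Adcy6*. With 2 libraries per group, the interval half-width of 0.17 to 0.55 limits what can be seen, and the intervals of 10 of the 38 members exclude 0.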
